A study of Drosophila melanogaster with 4 samples.

Results

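The weak BG3-specific borders are the boundaries between topologically associating domains (TADs) that were called in the contact map of BG3 cells alone, and with the permissive setting of the caller alone. The members were chosen by the called positions of both maps: a border is a member if it lay on an autosome, more than 2000 bp from every border of the Kc167 map and not within 20 bp of a border of the stringent BG3 list. This gave 512 members among 1909 autosomal BG3 borders, a share of 26.8%, and 58.0% of the 883 BG3 borders that lay beyond 2000 bp. The share is set by the rule and nothing is read from it. The members were compared with 371 strong BG3-specific borders, which are also in the stringent list, with 599 weak Kc167-specific borders, chosen in the Kc167 map by the mirror rule, and with 301 weak conserved borders, which lay within 20 bp of a Kc167 border and outside the stringent BG3 list or the stringent Kc167 list or both.

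BG3 is a Drosophila melanogaster line derived from the central nervous system of the larva, and Kc167 is a line of embryonic origin. Both were untreated cultures on Schneider's medium with different amounts of serum, each with 2 replicates of in situ Hi-C, in which DpnII fragments that lie close together in the nucleus are ligated and sequenced in pairs. The replicates were merged before the lists were made, so no spread between replicates enters any value, and the BG3 map rests on fewer read pairs than the Kc167 map. The paper also lists insulin in the BG3 medium and describes no medium for Kc167. Line, tissue of origin, sex of the line, serum, any difference in insulin and depth cannot be told apart. With no expression values in the lists, the identity of the cells was not checked against marker genes.

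A TAD is a stretch of chromosome whose parts contact each other more than they contact the neighbouring stretch. In Drosophila, borders are known to lie often at promoters of active housekeeping genes and at sites of architectural proteins such as BEAF-32, CP190, Chromator and CTCF, while the interiors of large domains often hold silent or developmentally regulated genes. The caller compares contacts on either side of each position, and its TAD separation score is lower where fewer contacts cross.

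Sequences near members with both a coding gene start and a promoter or insulator motif are shown first, since gene starts are the feature that set the members apart from the strong borders below. Each is read 5′ to 3′ from the RefSeq Release 6 genome (dm6) with the motif in capitals. M1BP is a zinc finger protein of core promoters, and its element lay in the following windows.
not, M1BP, chr3L:18622117-18622165, minus strand: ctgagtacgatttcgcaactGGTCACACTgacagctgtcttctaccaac
vib, M1BP, chr3R:19226645-19226693, plus strand: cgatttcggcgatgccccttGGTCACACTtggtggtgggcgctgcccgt
CG4751, M1BP, chr2L:11130692-11130740, minus strand: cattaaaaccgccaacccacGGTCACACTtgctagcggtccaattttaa
Dref binds a palindrome at promoters of growth and replication genes, and the last sequence matches the motif of the CTCF insulator protein. No binding was measured at any of these sites.
Sumo, Dref, chr2L:6967627-6967674, plus strand: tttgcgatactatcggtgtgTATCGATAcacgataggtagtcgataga
Cortactin, Dref, chr3R:21064760-21064807, plus strand: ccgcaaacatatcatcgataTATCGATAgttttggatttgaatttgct
eIF2beta, CTCF, chr3L:12526997-12527045, plus strand: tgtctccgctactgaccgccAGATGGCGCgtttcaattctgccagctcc

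The M1BP element beside not, which encodes the ubiquitin protease of the SAGA complex, lay 229 bp from its border, and the 5′ end of not lay 240 bp from it. At that border, bora, an activator of a mitotic kinase, starts on the other strand at 323 bp. The element at vib, a phosphatidylinositol transfer protein gene, was 354 bp from the border, and a Dref match in the same promoter was 318 bp from it. At Sumo, which encodes the small ubiquitin-like modifier, the palindrome lay 129 bp from the border. At Cortactin, an actin-binding protein gene whose 5′ end is 6 bp from the border, the palindrome lay 306 bp away on the other side. At eIF2beta, a translation initiation factor gene with its 5′ end at 84 bp, the CTCF match lay at 205 bp.

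The members reached from close to a Kc167 border to the interior of wide Kc167 domains. Their distance to the nearest Kc167 border ran from 2030 to 165415 bp with a median of 16041 bp, and 43.4% lay more than 20 kb away. The distances closest above the limit were 2030 bp at 18396777 on 3R, 218 bp from Vti1b, which encodes a membrane fusion protein, then 2035 bp at 14218781 on 3R and 2039 bp at both 2806672 on 2L, inside daw, and 13644506 on 3R, inside sqd. The borders closest below it, which are no members, lay at 1996 bp (24199088 on 2R), 1964 bp (21099584 on 3R), 1947 bp (8399791 on 3L) and 1942 bp (25960797 on 3L). The farthest member, at 14453519 on 2L, lay 165415 bp from any Kc167 border, and the farthest inside a gene, in an intron of ab, a transcription factor gene, at 138152 bp. The member at 38677 on 3L, 137448 bp away, is the first border of its arm in BG3 and has no TAD to its left.

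Weak describes the call, which rests on a local difference of the score and not on its level. The separation scores of the members ran from -0.413 to 0.737 with a median of 0.0481, and 40.6% were below 0. The 368 strong BG3-specific borders with a score had a median of 0.0831, and 37.8% of them were below 0. The strong class reached further down, to -1.06, but the middle parts of both classes overlapped, with 25th percentiles of -0.0923 for the members and -0.0930 for the strong borders. The weak conserved borders had a median of -0.0634 and 67.1% below 0. The stringent setting asks for a larger local difference of the score (0.08 in place of 0.04), so a position with a low score can fail it. The local difference itself was not compared, so these levels do not say how deep the dips were. Scores come from the map that chose the members and were not tested.

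Several of the members with the lowest scores lay inside or near named genes. On 3L the lowest was at 827133 (-0.409), in an exon of the splicing factor gene Sf3b3. Other low scores belonged to the member 300 bp from Mrp4, an ABC transporter gene, on 3R (-0.406, not the lowest of that arm), the member 135 bp from Sumo on 2L (-0.377) and the member 122 bp from RpL27A, a ribosomal protein gene, on 2L (-0.368). On 2R the lowest was 258 bp from AGO1, the Argonaute protein of the microRNA pathway (-0.343), and the next on 3L was inside RpS4 (-0.357). The highest scores were 0.737 at 11150942 on 2R, in an intron of CG13229, and 0.732 at 18946093 on 3L, 55 bp from CG32204. Introns of dpr16 and dpr5, which encode immunoglobulin proteins of neuronal surfaces, held the highest on 3R (0.724 and 0.636). Chromosome 4 had 3 members, 409 bp from the calcium pump gene PMCA (-0.0391), 1727 bp from the synaptic gene unc-13 (0.152) and 671 bp from Actbeta, an activin ligand gene (0.137).

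**Figure D1:**
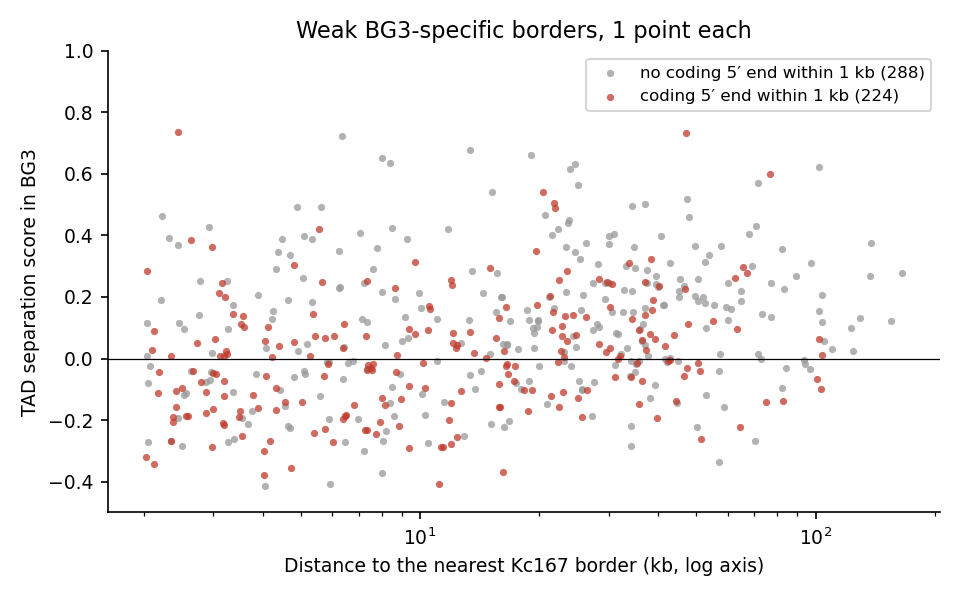
Each point is a weak BG3-specific border, with its distance to the nearest Kc167 border (kb, log axis) on the x axis and its TAD separation score in BG3 (no unit) on the y axis. Red marks the 224 members with a coding 5′ end within 1 kb and grey the 288 without, and the red points are denser toward short distances and low scores.

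Protein-coding gene starts lay within 1 kb of 224 of the 512 members, 43.8% (95% Wilson interval 39.5 to 48.1). At strong BG3-specific borders the share was 22.6% (18.7 to 27.2), which is 21.1 percentage points lower (interval of the difference 14.9 to 27.0, adjusted p = 5.98e-10 by Fisher's exact test). At weak Kc167-specific borders it was 47.7%, and the difference of -4.0 points had an interval from -9.82 to 1.88 (exact test, adjusted p = 0.462). Weak conserved borders had a gene start in 79.7% of cases, so that the members lay 36.0 points below them (interval of members minus conserved -41.9 to -29.4, exact test, adjusted p = 3.80e-23). Of 130222 restriction fragments over 5 kb from any border, 15.2% had a gene start within 1 kb. These tests count borders of merged maps, neighbouring borders are not independent, and p-values were adjusted over 20 tests.

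The regions around the members also held more genes than those around the strong borders. Coding 5′ ends occurred at 0.313 per kb within 1 kb of a member and at 0.118 per kb between 5 and 10 kb from it, a ratio of 2.66. At strong BG3-specific borders the densities were 0.142 and 0.0660 per kb, a ratio of 2.14. The lower gene density around the strong borders thus moved with the result, and its part in the difference was not tested. GC content within 1000 bp windows was similar, with medians of 40.8% at the members and 40.7% at the strong borders, and the median fragment at the border was 576 and 672 bp long. By arm the share of members with a gene start was 42.1% on 2L, 47.4% on 2R, 40.0% on 3L and 46.0% on 3R, with overlapping intervals, and 2 of the 3 members on chromosome 4 had one.

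**Figure D2:**
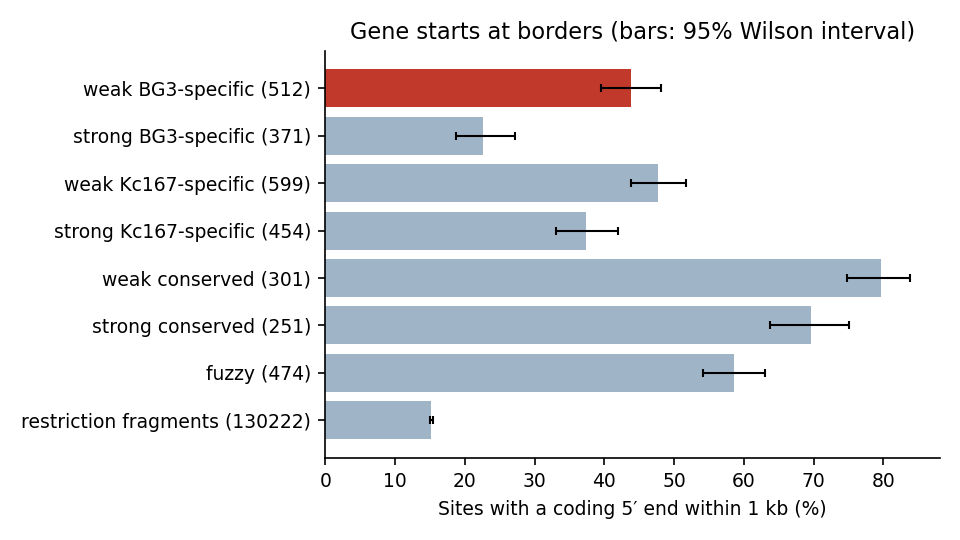
Share of sites with a coding 5′ end within 1 kb (%, x axis) for each border class and for restriction fragments away from borders, with the number of sites in brackets and 95% Wilson intervals as bars. The members (red, 43.8%) lie above the strong BG3-specific borders (22.6%) and below the weak conserved borders (79.7%).

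Gene starts beside the members pointed away from the border on both sides. Within 1 kb, 106 coding 5′ ends to the left were on the minus strand and 46 on the plus strand, while to the right 64 were on the minus strand and 105 on the plus strand. The odds ratio of strand by side was 3.78 (adjusted p = 6.77e-08 in Fisher's exact test), and 211 of 321 ends, 65.7%, pointed away. The same share was 63.8% at strong BG3-specific borders and 62.4% at weak Kc167-specific borders. The outward ends were concentrated in the nearest 500 bp, with 81 minus-strand ends to the left against 30 plus-strand ends, and 74 plus-strand ends to the right against 39 minus-strand ends. The 5′ ends of genes in a pair are not independent of each other.

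Most members with a gene start had outward ends on 1 side only. A divergent pair, with outward ends on both sides, was present at 33 members (6.45%), and at 4 more together with an inward end. At 85 members (16.6%) outward ends lay on 1 side, at 45 (8.79%) outward ends on 1 side lay together with inward ends, and at 57 (11.1%) every end pointed inward. Examples of a divergent pair are AnxB9 at 764 bp with Cortactin, Stam, an endosomal sorting gene, at 212 bp with the mitotic kinase gene aurB at 230 bp, and Klp64D, a kinesin gene, at 446 bp with Cyt-c1, a respiratory chain gene, at 373 bp.

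For non-coding RNA (ncRNA) genes no such order passed the test. Their 5′ ends lay within 1 kb of 28 members, 5.47%, against 5.12% at strong BG3-specific borders (adjusted p = 0.880 in the exact test, interval of the difference -2.85 to 3.3 points) and 4.67% at weak Kc167-specific borders (adjusted p = 0.832, -1.80 to 3.52). On the left 7 ends were minus and 10 plus, and on the right 9 were minus and 8 plus, an odds ratio of 0.622 (exact test, adjusted p = 0.832). With 34 ends in all, 44.1% of them outward, a skew of the size seen for coding genes cannot be resolved well.

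**Figure D3:**
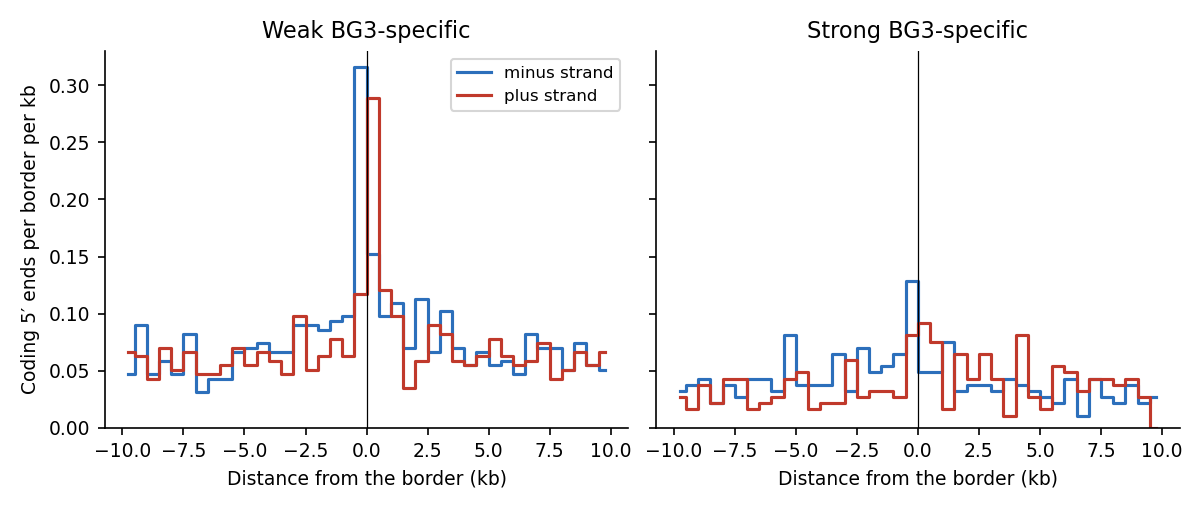
Coding 5′ ends per border per kb (y axis) in 500 bp bins against the distance from the border (kb, x axis), for minus-strand genes (blue) and plus-strand genes (red), at weak (left) and strong (right) BG3-specific borders. At the members the minus-strand peak of 0.316 lies just left of the border and the plus-strand peak of 0.289 just right of it.

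Among the members, those close to a Kc167 border had gene starts most often. The share was 55.3% (46.1 to 64.1) for the 114 members 2 to 5 kb from a Kc167 border, 46.2% (36.3 to 56.3) for the 91 at 5 to 10 kb, 48.2% (37.9 to 58.7) for the 85 at 10 to 20 kb and 35.1% (29.2 to 41.6) for the 222 beyond 20 kb. The intervals of neighbouring bins overlap, while those of the nearest and the farthest bin do not. Over 4 equal groups of 128 members by separation score, from low to high, the share was 59.4%, 47.7%, 42.2% and 25.8%, and the intervals of the lowest group (50.7 to 67.5) and the highest (19.0 to 34.0) do not overlap. The median score rose with distance in the same bins, from -0.0447 to 0.131, so the gradients are not separate. Bins use the values that chose the members and are a description.

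**Figure D4:**
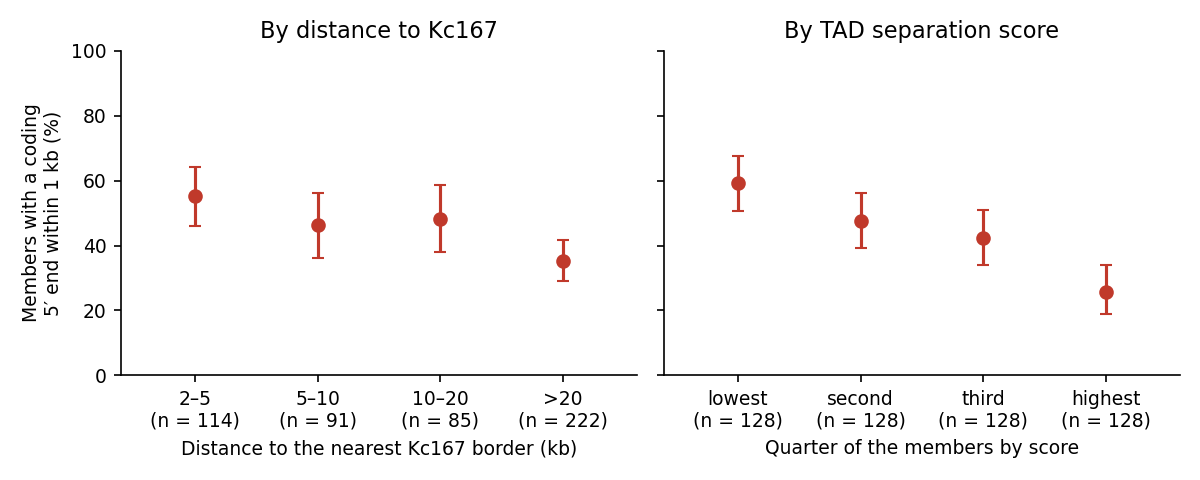
Share of members with a coding 5′ end within 1 kb (%, y axis), with 95% Wilson intervals, by distance to the nearest Kc167 border (kb, left) and by 4 equal groups of the separation score (right). The share is 55.3% at 2 to 5 kb and 35.1% beyond 20 kb, and 59.4% in the lowest and 25.8% in the highest group.

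Introns of coding genes held 170 members, 33.2% (29.3 to 37.4), exons 29.7% and intergenic DNA 37.1%. The intron share was above that of weak conserved borders (19.3%, difference 13.9 points, 7.70 to 19.8, exact test, adjusted p = 8.62e-05). It was 5.34 points below that of strong BG3-specific borders, 38.5%, with an interval of members minus strong from -11.7 to 1.04 (exact test, adjusted p = 0.462), and with specific borders taken beyond 5 kb members minus strong was -9.97 points (exact test, adjusted p = 0.0409). With the limit of 2000 bp it was 0.983 points above that of weak Kc167-specific borders, 32.2% (-4.52 to 6.52, exact test, adjusted p = 0.832). Of the restriction fragments away from borders, 39.9% lay in introns.

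The genes that carried a member in an intron were long. They numbered 161, with a median length of 22.4 kb against 2.10 kb over all autosomal coding genes, and 57 exceeded 50 kb. Long genes offer more intronic positions, and no allowance was made for it. Myo81F, l(3)80Fg, heph, which encodes an RNA-binding protein of the PTB family, and AGO3, an Argonaute of the piRNA pathway, held 3 members each. Transposable elements annotated within 1 kb were found at 7.62% of the members and 13.1% of the fragments. Every other border class also lay below the fragments, from 4.98% (weak conserved) to 10.6% (strong Kc167-specific), with 8.09% at strong BG3-specific borders.

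For none of the 5 motifs searched did the members differ from either other class of specific borders by a margin that passed the test. Matches were sought on both strands within 500 bp. The M1BP element (GGTCACACT) was at 24 members, 4.69%, against 2.70% of strong BG3-specific and 4.01% of weak Kc167-specific borders. GAGAGAG, bound by the GAGA factor Trl, was at 14.8% against 15.4% and 12%. At least 2 matches to CGATA, the core bound by BEAF-32, were at 42.0% against 38.0% and 45.4%, the CTCF motif (AGNTGGCGC) at 4.10% against 3.5% and 3.51%, and the Dref palindrome (TATCGATA) at 6.84% against 5.93% and 8.51%. The palindrome holds CGATA on both strands, so each palindrome by itself counts as 2 CGATA matches. Of the 10 comparisons by Fisher's exact test none passed, with adjusted p from 0.462 to 0.880, and the widest interval, for CGATA against strong borders, ran from -2.57 to 10.4 points. Among the restriction fragments the shares were 0.778%, 10.3%, 36.6%, 2.71% and 2.40% in the same order. At weak conserved borders they were 13.3%, 13.3%, 57.5%, 11.0% and 21.3%, above the members for all but GAGAGAG. Motifs were not tested against that class.

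Within the members, the promoter motifs went with gene starts. The same split was not made for other borders or for fragments, so whether this is particular to the members was not tested. The M1BP element was at 21 of the 224 members with a coding 5′ end within 1 kb, 9.38% (6.21 to 13.9), and at 3 of the 288 without, 1.04% (0.355 to 3.02). The Dref palindrome was at 27 (12.1%) and 8 (2.78%), and the CGATA pair at 53.1% and 33.3%. Every site with the palindrome also counts as a CGATA pair, so these shares are not separate. GAGAGAG was at 14.7% and 14.9%. The CTCF motif was at 5.36% and 3.12%, with overlapping intervals. Besides the sequences shown above, members with an M1BP match lay 45 bp from Rpn1, a proteasome subunit gene on 3L, 122 bp from RpL27A and 102 bp from CG8441. Those with a Dref match lay 160 bp from CycA, the cyclin A gene, and 125 bp from pad with the splicing factor gene SF2 at 205 bp. Those with a CTCF match lay 71 bp from Noa36 with Hrb98DE, an RNA-binding protein gene, at 475 bp, and 150 bp from the replication protein gene RPA2.

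**Figure D5:**
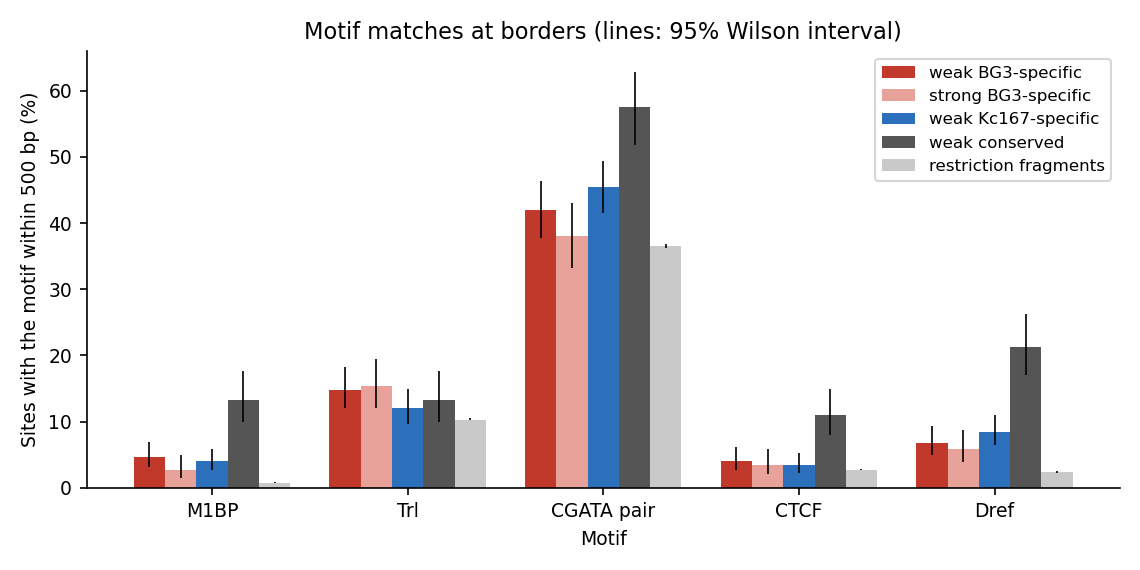
Share of sites with each motif within 500 bp (%, y axis) for the members, strong BG3-specific, weak Kc167-specific and weak conserved borders and restriction fragments, with 95% Wilson intervals as lines. The 3 specific classes overlap for each motif, and the M1BP share is 4.69% at the members and 13.3% at weak conserved borders.

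Of all 11749 autosomal coding genes, 483 (4.11%) had their 5′ end within 2 kb of a member, and the gene lists ranged from 0 to 15.7%. Signalling ligands and receptors had 8 of 51 (15.7%, 8.17 to 28.0). They included the FGF receptor gene htl at 281 bp (score -0.0612), Wnt6 at 372 bp (0.279), Actbeta at 671 bp, the EGF ligand gene Krn at 1147 bp (0.0310), put, a type II TGF-beta receptor gene, at 1171 bp (0.0156), the activin-like ligand gene daw at 1411 bp (0.115) and drl, a receptor for Wnt5, at 1462 bp (-0.0744). In 5 of these, Actbeta, Krn, put, daw and drl, the border lay inside the gene's own intron.

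Ribosomal protein genes had 5 of 78 cytoplasmic members of the list (6.41%) and 3 of 62 mitochondrial ones (4.84%). RpL27A, RpL34b, RpL35A and RpS4 lay at 122, 169, 174 and 357 bp from members with scores of -0.368, -0.197, -0.215 and -0.357, all of them low, and RpL13 at 1351 bp from a member scoring 0.00840 inside Dref. None of 29 neuroblast genes (upper bound 11.7%) and none of 25 proneural and Notch genes (13.3%) lay within 2 kb, nor did any of 30 ecdysone response genes, 26 eye genes or 28 Polycomb and Trithorax genes. Axon guidance and adhesion genes had 2 of 68, beat-IIIc at 333 bp and Toll-7 at 1582 bp, ion channel and synapse genes 1 of 74, unc-13, and dpr and DIP genes 1 of 27, dpr5 at 1334 bp. The interval of each of these lists holds the share of all genes. Segmentation genes had 2 of 38, en at 1113 bp and Scr at 1397 bp. Other lists gave Stat92E, the JAK/STAT transcription factor gene, at 552 bp, the muscle regulator Mef2 at 527 bp, pdm3 at 501 bp, ind at 1462 bp and lolal at 1099 bp. The lists were not tested, and their intervals cover counting error alone.

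More than 1 member often fell in the same stringent domain. The rule takes the members from outside the stringent list, so 506 of the 512 lay inside a stringent BG3 TAD, and nothing is read from that. At least 1 member lay in 287 of 857 autosomal stringent BG3 TADs, with 1 in 163 of them, 2 in 76 and 3 or more in 48. Each counted once, these 287 TADs had a median width of 192 kb, against 81.4 kb over all 857. A TAD must be wide enough to hold an inner border, so the rule bears on these widths too. The same count was not made for other borders outside the stringent list. The narrower of the permissive TADs beside a member had a median width of 33.1 kb. Among the nearest borders on either side of members, 33.6% were members too, against 26.8% of all BG3 borders. The rule uses Kc167 positions, so BG3 borders in a stretch without Kc167 borders can become members together. These shares therefore describe the members and were not tested. In 172 cases a permissive BG3 TAD had a member at both ends.

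The stringent TAD with the most members, 10, spans 958 kb on 3R (6759780 to 7718012) and holds genes of the Antennapedia complex. A member lay in an intron of the Hox gene Scr, 1397 bp from its 5′ end (score 0.151), another in an intron of Antp (0.366) and another 2779 bp from the 5′ end of Antp (0.220). The same TAD held members 212 bp from Tailor and 728 bp from alphaTub84B (-0.287), 18 bp from lap, a clathrin adaptor gene (0.0169), and 380 bp from alphaTub84D (0.0573). Of its 14 inner BG3 borders 10 were members, and the Kc167 map placed 12 borders inside the same stretch. By the rule these lie more than 2000 bp from the members.

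In the Kc167 map the members fell into 428 of 2074 autosomal TADs, 365 of which held 1 member. Each counted once, these 428 TADs had a median width of 62.3 kb, against 39.3 kb over all Kc167 TADs. In both maps wider TADs are more likely to hold any given position, which was not allowed for. At 44 members (8.59%) the border cut a single Kc167 TAD whose outer ends were matched in BG3 within 2 kb. A Kc167 TAD of 142 kb on 2L (7258511 to 7400599) held 3 members, 4432 bp from Wnt4 (score -0.00804), 372 bp from Wnt6 (0.279) and 51 bp from gudu (0.0814). A narrow Kc167 TAD of 25.6 kb on 2L (10838585 to 10864181) also held 3, beside CG6700, the mitochondrial channel gene porin at 122 bp and the pair aurB and Stam.

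Chromatin loops in the lists met the members about as often as all BG3 borders, which include the members. An anchor of one of the 771 autosomal BG3 loops, extended by 1 kb, held 34 members (6.64%, 4.79 to 9.14), against 7.07% of all BG3 borders, and the 1126 Kc167 loops held 56 (10.9%, 8.52 to 13.9), against 9.64%. Strong BG3-specific borders lay in anchors of BG3 loops at 6.74% and of Kc167 loops at 7.01% (4.83 to 10.1). For weak Kc167-specific borders the shares were 7.35% and 10.4%. The lists come from the same reads as the borders and differ in depth, so the shares were not tested. The BG3 loops at members had a median ratio of observed to expected contacts of 2.78, against 2.63 over all autosomal BG3 loops.

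The highest such ratio, 9.42, belonged to a 26 kb loop on 2L with 13 observed contacts against 1.38 expected, whose anchor lies at a member in an intron of the cadherin gene CadN2. A 28 kb loop on 2L (ratio 8.74, 33 contacts) reached a member in an intron of dachs, an unconventional myosin gene. A 112 kb loop on 3R (6.72, 29 contacts) joined the member 1476 bp from CG45546 to an anchor at stg, the Cdc25 phosphatase gene. A 28 kb loop on 3L (6.08) met the member inside Cip4, a 770 kb loop on 3R (5.52) the member 131 bp from the dynein gene Dhc98D, and a 30 kb loop on 2R (4.63) the member in an exon of dap, a Cdk inhibitor gene. The Kc167 list held loops with the same anchors at dachs (77 contacts, ratio 9.25) and Cip4 (52 contacts, ratio 5.44), and none with an anchor at the other 4 members. In all, 13 members lay in anchors of loops of both maps. Contacts per pixel were few, and only their counts within the merged map stand behind these ratios.

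Members lay under loops of the Kc167 map more often than under BG3 loops. Loops shorter than 1000 kb spanned 165 members in Kc167 (32.2%, 28.3 to 36.4) and 56 in BG3 (10.9%, 8.52 to 13.9). Spanned by loops of both maps were 30 members, of Kc167 alone 135 and of BG3 alone 26. The same was seen over all BG3 borders, with 27.4% under Kc167 loops and 10.8% under BG3 loops. The Kc167 list holds more loops from a deeper map, and the part of depth in this was not tested.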

How the data were processed

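Per the labels, in situ Hi-C was made with DpnII from BG3 and Kc167 cells, 2 replicates each. Tools listed in the submitters' processing notes are Juicer 1.7.6 and BWA 0.7.15-r1140, with dm6 as the build. The authors called TADs with HiCExplorer on merged replicates, and the deposited lists give positions and a separation score without fixed range, used within 1 map. The authors called loops with HiCCUPS at 2 kb, and the deposited lists give observed contact counts and expected contacts as a signal. Read depth per library was not recomputed.

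Borders are TAD ends, at the last base of the left TAD, merged where they touch. Gene starts are 5′ ends of Ensembl 115 genes. Shares were compared with Fisher's exact test (SciPy 1.17.1, Python 3.11.15), two-sided, with Benjamini-Hochberg adjustment over 20 tests and Wilson and Newcombe intervals at 95%, which cover counting error alone. The class rule was checked on planted positions and the share test on independent simulated counts. This does not cover dependence between neighbouring borders, and the strand test was not simulated. Alternatives vary distances, windows, chromosomes and annotation. Members and gene lists were chosen with earlier results of these data known. Named genes are those of the members with the lowest and highest scores per arm, near the limit, farthest from Kc167, on the gene lists, in the fullest TADs, at the strongest loops or with a motif and a gene start. A few of these genes are not reported here.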

Additional observations from a re-analysis of the deposited data

Results flagged for a closer look

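The difference in gene starts between weak and strong specific borders was larger in BG3 than in Kc167, which was noticed after the values were seen. In BG3 the odds of a coding 5′ end within 1 kb were 2.66 times as high at weak as at strong specific borders (95% interval 1.97 to 3.58), from 43.8% and 22.6%. In Kc167 the ratio was 1.53 (1.19 to 1.96), from 47.7% and 37.4%. The ratio of both odds ratios was 1.74 (1.18 to 2.57, Zelen's exact test of equal odds ratios over 1936 borders, two-sided p = 0.00609), and it was from 1.65 to 2.0 over the alternatives, with exact p from 0.00250 to 0.0160. The weak classes of both maps did not pass the test of their own difference, and the strong classes had 22.6% (18.7 to 27.2) in BG3 and 37.4% (33.1 to 42.0) in Kc167. Gene density around the borders differed as well. Between 5 and 10 kb from the border, coding 5′ ends per kb were 0.118 at weak and 0.0660 at strong BG3-specific borders. At weak and strong Kc167-specific borders they were 0.136 and 0.0969. The stringent setting was applied to maps of unequal depth. The parts of gene density and of depth in this were not tested.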

How the results depend on the processing

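The alternatives moved the limit for specific borders, the tolerance for strong ones, the chromosomes, the spacing of borders, the windows, the gene starts and the intron annotation. Of 149 values under other settings, 138 kept the direction and the side of the threshold, or the count within 1.5 times. The wider tolerance for strong borders changed no test value, and its rows are counted among the 138. No stringent BG3 border lay closer than 5400 bp to a member, so this setting could not change the members and is no check on them. All 4 tested results that passed kept both, with the difference in gene starts from strong borders between 17.8 and 25.4 points, that from weak conserved borders between -39.3 and -29.3, the intron difference from weak conserved borders between 13.4 and 14.3, and the coding strand odds ratio between 2.34 and 5.12. With specific borders beyond 5 kb, the members lay in introns less often than strong BG3-specific borders by -9.97 points (exact test, adjusted p = 0.0409, range over its alternatives 0.0409 to 0.543). The number of members fell to 307 with a limit of 10 kb. None of the results that changed direction passed the threshold in either setting. These were Trl against strong borders (0.0740 points with the 5 kb limit, 0.233 with X, 1.32 within 250 bp), Dref against strong borders (-0.286 with the 5 kb limit), introns against weak Kc167-specific borders (-1.28 with X), CTCF against weak Kc167-specific borders (-0.136 with X, -1.90 within 1 kb) and against strong borders (-0.789 within 250 bp), and the ncRNA strand odds ratio (1.07 within 2 kb). The cause was not tested. No paired analysis was possible because the deposited lists merge the replicates, and for the same reason no replicate could be left out. Depth limits what either list can hold: a border missing from the Kc167 list may lie below its calling threshold, and the lists give no error for a border's position. The paper reports similar distances between TAD borders with full and with down-sampled Kc167 libraries. The down-sampled map was not used here.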

Other observations

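On X, which the autosomal rule leaves out, the same distances gave 116 weak BG3-specific borders among 346 BG3 borders (33.5%). A coding 5′ end lay within 1 kb of 38 of them, 32.8% (24.9 to 41.7), against 19.6% of 56 strong BG3-specific borders (11.3 to 31.8), 47.8% of 159 weak Kc167-specific borders and 81.8% of 44 weak conserved borders. On the left of these X borders 12 ends were minus and 5 plus, and on the right 19 were minus and 15 plus. The median separation score was 0.0331. BG3 is a male and Kc167 a female line, so the X copy number differs between the maps, and no test was made on X alone.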
